A study of Homo sapiens with 8 samples.

Results

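Ribosome profiling counts were examined for 45 genes of ribosome biogenesis, out of 20719 genes listed in the count files. The genes were taken by name, as factors of the nucleolus and of ribosome assembly, and every symbol was found through its Ensembl identifier. Ribosomes are built in the nucleolus, where RNA polymerase I transcribes the long rRNA precursor. Small nucleolar ribonucleoproteins (snoRNPs) modify this precursor, and assembly factors cut and fold it into the 40S and 60S subunits before export. Rapidly growing tumor cells usually carry large nucleoli and make these factors at high levels.

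The cells were G401, which derive from a rhabdoid tumor of the kidney and have lost SMARCB1, a subunit of the mSWI/SNF chromatin remodeler. The SMARCB1 line re-expresses SMARCB1 from a doxycycline-inducible (Tet-On) system and the GFP line expresses GFP from the same system. Each line received doxycycline (Dox, 0.1 µg/ml) or DMSO for 12 h, and plates of a condition were pooled for each library. This gave the groups SMARCB1 Dox, SMARCB1 DMSO, GFP Dox and GFP DMSO, with 2 libraries in each. The deposited values are counts of ribosome-protected fragments on coding sequence. Scaled within a library, they reflect the share of its ribosomes that sat on the mRNAs of a gene, not their absolute number. The paper reports that SMARCB1 re-expression raised global translation, a change that such shares cannot show. It measured this by incorporation of an amino acid analog, after a longer doxycycline treatment than the 12 h used here. RNA-seq was not analysed here, and more mRNA cannot be told apart from more ribosomes on each mRNA.

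The libraries held 5924443 to 14000039 counts on genes. GFP Dox replicate 1 stood apart, because reads with more than 1 alignment made up 56.4% of its tally (25.6% to 39.7% in the other 7). Such a tally can count 1 read several times, so it is not a share of reads. The TMM scaling factor of that library was also the lowest at 0.872. SMARCB1 was at 224 and 291 CPM, which are counts scaled to the total on genes of each library, in the SMARCB1 Dox libraries and at 0 counts in the other 6. The tumor markers VIM, KRT8 and KRT18 were above 780 CPM in every library, while PTPRC, CD3E and UMOD, markers of blood cells and kidney tubule, were at 0. Between the untreated lines, 587 of 11097 genes tested already differed, so a comparison of the lines carries more than the transgene.

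The sequences of NPM1 and NHP2, the members with the largest repeated share, show what the counts can and cannot resolve. Both are spliced coding bases from GENCODE annotation 44 on GRCh38. NPM1 (nucleophosmin, a histone and ribosome chaperone, chr5:171387116-171411810, plus strand) has many processed copies in the genome. Of its 30-base coding stretches, about the length of a footprint, 88.6% also occurred elsewhere. Below are its first 300 coding bases (chr5:171387949-171391747, introns left out), with capitals for bases that lie in a stretch found only once.

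NPM1: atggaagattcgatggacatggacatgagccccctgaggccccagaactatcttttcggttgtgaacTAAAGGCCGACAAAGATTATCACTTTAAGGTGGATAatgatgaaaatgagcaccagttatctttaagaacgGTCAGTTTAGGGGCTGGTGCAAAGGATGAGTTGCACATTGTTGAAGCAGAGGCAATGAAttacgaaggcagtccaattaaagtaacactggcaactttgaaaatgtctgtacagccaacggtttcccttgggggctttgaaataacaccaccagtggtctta

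Only 31.7% of these bases were in capitals, and reads with several alignments are not counted, so the NPM1 counts come from a small part of the gene. NHP2 (a core protein of H/ACA snoRNPs, chr5:178149463-178153894, minus strand) followed with 41.4% of its stretches found elsewhere. Its coding bases 91 to 330 (chr5:178150894-178153727) hold a long repeated run between unique flanks, marked in the same way. Not all of its repeated stretches lie within these bases.

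NHP2: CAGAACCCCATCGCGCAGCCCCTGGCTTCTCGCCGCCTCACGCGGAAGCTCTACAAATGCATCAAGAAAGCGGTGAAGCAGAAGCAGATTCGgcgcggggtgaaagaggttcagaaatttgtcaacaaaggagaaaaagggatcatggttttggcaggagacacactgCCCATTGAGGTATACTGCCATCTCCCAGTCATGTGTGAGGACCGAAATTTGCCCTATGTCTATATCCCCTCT

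WDR12 came next with 15.7%, 16 further members had shares from 0.0716% to 8.22%, and 26 had none. PPAN shared 94.3% of its coding bases with the read-through gene PPAN-P2RY11, and reads that fit both genes are left out of such counts. LTV1 (27.7%), NOP16 (12.8%, with ARL10 on the opposite strand) and NOP2 (1.02%) shared less with a neighbour. The levels of NPM1, NHP2 and PPAN are therefore uncertain.

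Promoter windows were examined for CACGTG, the palindromic E-box bound by MYC and related factors, because ribosome biogenesis genes are known MYC targets. RefSeq windows on GRCh38.p14, from 250 bases before to 50 after a transcription start, were matched for 39 members, and 18 of the 39 (46.2%) held the motif in a window. It was present for 27 of 100 other ribosome biogenesis genes (27%), for 13.2% of 9103 tested genes and in 7.26% of all windows. As a palindrome it reads the same on both strands. Of the 20 motifs of members, 18 lay within 50 bases of the start, against 36.9% of the motifs over all windows. Most of the members' motifs, 12 of 20, lay after the start, as did 312 of 2821 over all windows. The bases before the start are shown for 4 members whose motif lay upstream, with CACGTG in capitals: NOP10 (chr15:34343137-34343386, minus strand), which had the motif at more than a single place, and UTP4 (chr16:69132589-69132648), UTP20 (chr12:101280045-101280104) and NAT10 (chr11:34105569-34105628), all on the plus strand.

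NOP10: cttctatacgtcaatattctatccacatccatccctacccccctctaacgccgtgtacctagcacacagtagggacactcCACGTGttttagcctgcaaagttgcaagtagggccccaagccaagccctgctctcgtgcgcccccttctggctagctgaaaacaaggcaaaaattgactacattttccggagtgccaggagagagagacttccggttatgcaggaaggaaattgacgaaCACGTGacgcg
UTP4: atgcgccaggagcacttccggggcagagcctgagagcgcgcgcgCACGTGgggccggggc
UTP20: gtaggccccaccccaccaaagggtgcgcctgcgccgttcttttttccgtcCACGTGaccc
NAT10: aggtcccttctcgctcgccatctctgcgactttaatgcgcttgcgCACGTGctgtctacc

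Members with and without the motif had similar medians in the SMARCB1 line, at −0.21 and −0.22 on the log2 scale for Dox over DMSO (18 and 21 genes). In the GFP line they were 0.07 and 0.06, and for the difference between these Dox effects −0.29 and −0.29. For the SMARCB1 line over the GFP line they were further apart, at −0.43 and −0.34 under Dox and −0.06 and −0.15 under DMSO. These differences were not tested. A match describes letters and does not show that a factor binds there.

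Per length, the members were among the more densely occupied genes of these cells. Their median was 103 CPM per kb of coding sequence (mean of 8 libraries), against 17.2 over the tested genes, and 44 of 45 members lay above that value. NCL (nucleolin, chr2:231453531-231483641, minus strand), which binds the rRNA precursor, led with 3104 ± 916 CPM per kb (SD, n = 8), 3.40-fold above NPM1 at 912 ± 191. EBNA1BP2, a factor of early 60S assembly, stood at 691 ± 63.2 and FBL, the methyltransferase of box C/D snoRNPs, at 663 ± 67.7, a difference within their spread. Divided instead by the number of 30-base stretches found only once (107 for NPM1, 2091 for NCL), NPM1 moved to 9008 and above NCL at 3519. Such stretches overlap, and 26.3% of the 969 coding bases of NPM1 lie in at least 1 of them. The value of 9008 therefore overstates its level per unique base. The order of these genes depends on how repeated bases are treated.

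**Figure D1:**
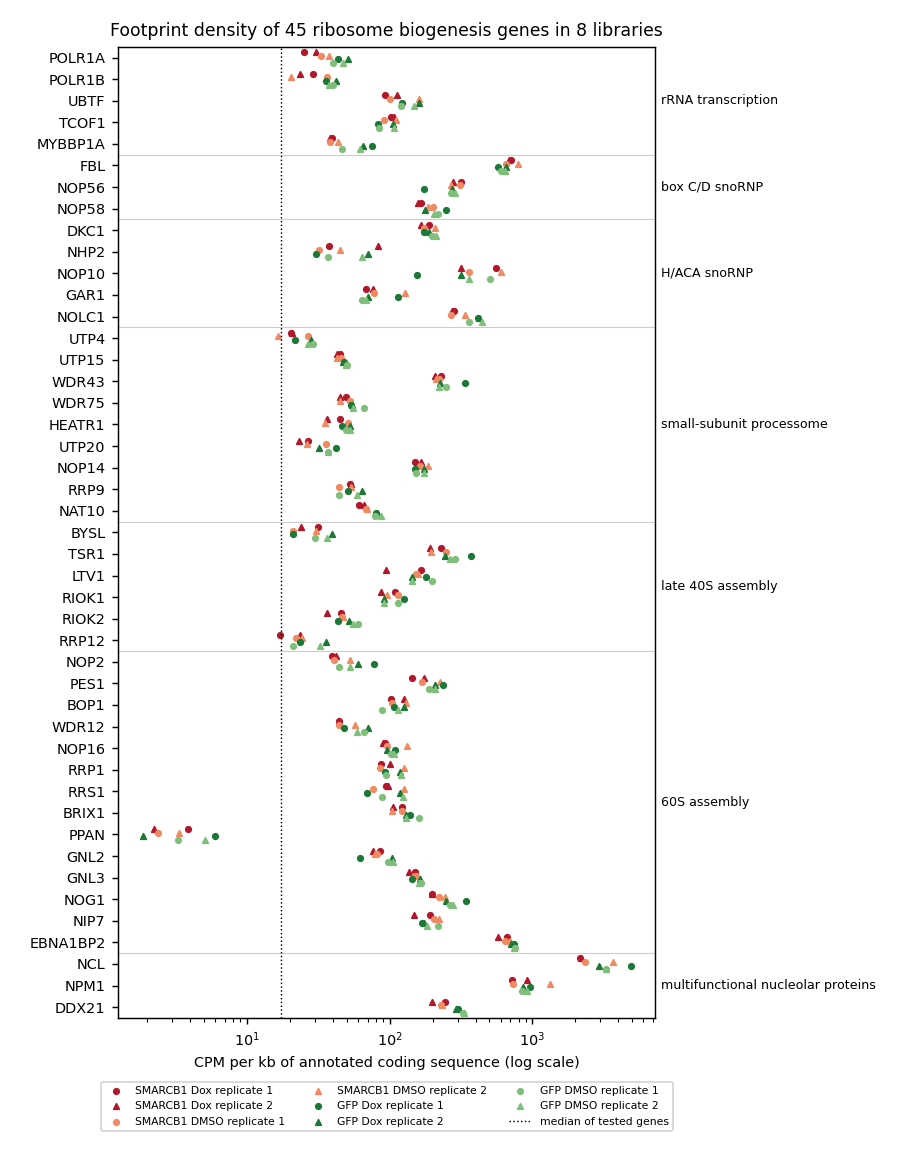
Footprint density of each of the 45 genes in CPM per kb of coding sequence on a log axis, in 8 libraries (colour, group; circle and triangle, replicates 1 and 2), ordered by role. NCL lies at the right end in every library, and only PPAN, which shares 94.3% of its coding bases with another gene, lies wholly to the left of the dotted median of all tested genes.

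The highest member of the rRNA transcription group was UBTF, the factor that marks rDNA for RNA polymerase I, at 127 ± 26.1 CPM per kb. The polymerase subunits POLR1A and POLR1B were at 38.5 ± 8.92 and 33.0 ± 7.84. In the H/ACA group, NOP10 led with 396 ± 147, and its spread across libraries was among the widest of the members (a coefficient of variation of 37.2%, against 39.6% for NHP2 and 41.0% for PPAN). WDR43 led the small-subunit processome, the particle that makes the first cuts toward 18S rRNA, at 238 ± 41.8. TSR1, a GTPase-like factor of late 40S assembly, led its group at 254 ± 58.5. The long scaffold proteins of the processome were lower, with HEATR1 at 46.2 ± 6.93 and UTP20 at 32.5 ± 6.51. UTP15 (6.13%) and GNL3 (6.90%), the latter known as nucleostemin, varied least among libraries.

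All together, the 45 genes took 1.61% and 1.58% of the counts in SMARCB1 Dox, 1.67% and 2.12% in SMARCB1 DMSO, 2.45% and 1.96% in GFP Dox, and 2.03% and 2.08% in GFP DMSO. Both SMARCB1 Dox libraries lay below the other 6. NCL supplied 32.01% to 47.4% of this sum. Without NCL, the share was 1.10% and 1.05% in SMARCB1 Dox, 1.11% and 1.24% in SMARCB1 DMSO, 1.29% and 1.27% in GFP Dox, and 1.24% and 1.31% in GFP DMSO. The order of the SMARCB1 Dox libraries below the rest was the same without NCL, with SMARCB1 DMSO replicate 1 close above them.

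**Figure D2:**
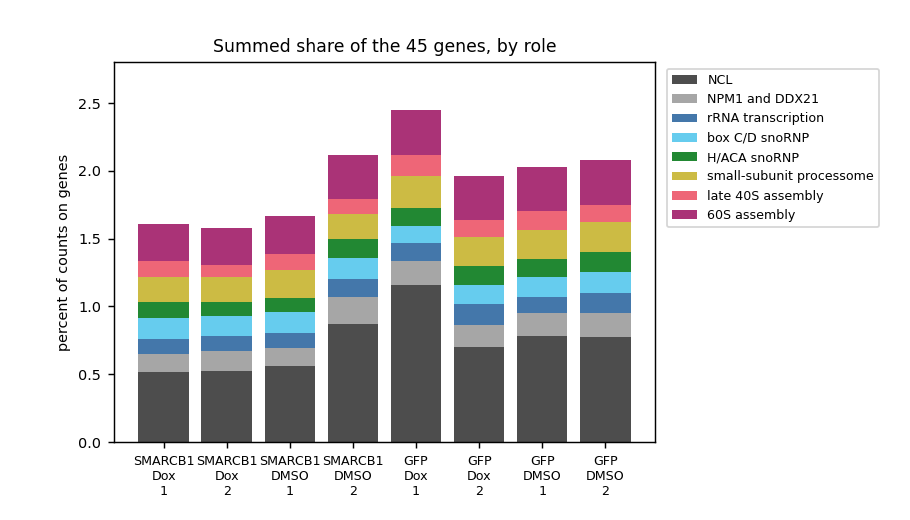
Percent of the counts on genes that fell on the 45 genes in each of the 8 libraries, stacked by role, with NCL drawn apart from NPM1 and DDX21. The bars of the SMARCB1 Dox libraries are the shortest at 1.61% and 1.58%, and that of GFP Dox replicate 1 is the tallest at 2.45%, with the largest NCL part.

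The first comparison asked what re-expression of SMARCB1 did to the share of ribosome footprints on these genes. In SMARCB1 Dox against SMARCB1 DMSO, 44 of 45 members had a log2 fold change below 0, where 52.6% of the 11097 tested genes did. The median was −0.22, against −0.02 over all tested genes, and the members ranged from −0.63 to 0.51. All members are read from the same libraries and are not independent. Counts of members below 0, here and in the later comparisons, are therefore descriptions. Within groups, the libraries' median log2 level of the members had a pooled SD of 0.11. No single member passed the test: 0 of 45 were called by edgeR's quasi-likelihood test at an adjusted p below 0.05 (Benjamini-Hochberg over all genes), 0 had an unadjusted p below 0.05, and DESeq2 also called 0. The background was 0.018%, since only 2 of the 11097 genes were called, and 0.331% with DESeq2. Scaled by library size alone, the members had a median of −0.10 with 36 below 0, against 0.09 and 38.8% over all tested genes. In simulated counts of this comparison (10936 genes), 25% of genes changed by 2-fold were found and 85% of those changed by 4-fold, with 10 wrong calls. The simulated counts were drawn independently around a common mean per gene, without line differences or deviations that libraries share. The rates may therefore differ from those in the real libraries. The changed genes were drawn from all genes kept, so these rates are not those of the members, whose shifts were all below 2-fold.

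On gene totals, 9 of 45 members (POLR1A, NOP58, GAR1, NAT10, RIOK2, NOP16, NOG1, NIP7 and NCL) were lower in both Dox libraries than in both DMSO libraries, and 0 were higher in both. The background was 11.2% of tested genes lower and 23.9% higher. With TMM-scaled totals, an alternative chosen after seeing the data, the members were 18 lower and 0 higher, against 18.3% and 17.3%. The size of the shift rested partly on the DMSO libraries. Without SMARCB1 DMSO replicate 2 the median was −0.12 with 34 members below 0, and without SMARCB1 DMSO replicate 1 it was −0.35 with 41 below 0.

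The lowest values belonged to GAR1, NCL and POLR1A. GAR1, a core protein of H/ACA snoRNPs (chr4:109815510-109824740), had 44.8 and 49.6 CPM in SMARCB1 Dox and 50.6 and 83.3 CPM in SMARCB1 DMSO. The groups did not overlap, but SMARCB1 DMSO replicate 2 alone was far above the rest. Its log2 fold change was −0.63 ± 0.33 (SE; adjusted p = 1, edgeR quasi-likelihood), and −0.15 without that library.

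NCL had 5156 and 5232 CPM in SMARCB1 Dox and 5584 and 8719 CPM in SMARCB1 DMSO. The Dox libraries were close to each other and below both DMSO libraries, which were far apart. The log2 fold change was −0.58 ± 0.35 (adjusted p = 1, edgeR quasi-likelihood), and −0.16 without SMARCB1 DMSO replicate 2. POLR1A, the largest subunit of RNA polymerase I (chr2:86020216-86106155), had 129 and 156 CPM in SMARCB1 Dox and 170 and 194 CPM in SMARCB1 DMSO. These groups were apart by less than the distance within each, and the log2 fold change was −0.47 ± 0.23 (adjusted p = 1, edgeR quasi-likelihood).

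NHP2 was the single member above 0. It had 22.4 and 49.3 CPM in SMARCB1 Dox and 19.1 and 26.6 CPM in SMARCB1 DMSO, and the groups overlapped. Its log2 fold change was 0.51 ± 0.41 (adjusted p = 1, edgeR quasi-likelihood) and −0.15 without SMARCB1 Dox replicate 2. In all 4 groups NHP2 was higher in replicate 2 than in replicate 1. BYSL (−0.01 ± 0.30) and RRP9 (−0.01 ± 0.24), factors of late 40S assembly and of the U3 snoRNP, stood next below 0 and took either sign in other fits.

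By role, the medians were −0.20 for the 5 factors of rRNA transcription, −0.16 for the 3 box C/D proteins, −0.25 for the 5 H/ACA proteins, −0.17 for the 9 processome proteins, −0.25 for the 6 late 40S factors, −0.27 for the 14 factors of 60S assembly, and −0.45 for NCL, NPM1 and DDX21. TCOF1 (treacle, which binds RNA polymerase I) stood at −0.06 ± 0.24, and the polymerase subunit POLR1B at −0.20 ± 0.26. Within 60S assembly, NOP16 (−0.44 ± 0.26), NIP7 (−0.43 ± 0.24) and PES1 (−0.43 ± 0.26), a member of the PES1-BOP1-WDR12 complex, were lowest. Of 115 other ribosome biogenesis genes that were tested, 0 were called in this comparison, 88 were below 0 and the median was −0.16.

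The GFP line served as the control for doxycycline itself. In GFP Dox against GFP DMSO, 13 members were below 0 and 32 above, where 46.9% of tested genes were below 0, and the median was 0.07 against 0.02 over all genes. No member and no other gene passed the test (background 0%) by edgeR's quasi-likelihood test. NOP2 and NOP10 had an unadjusted p below 0.05, and DESeq2 called 0 members. On gene totals 8 members were lower in both Dox libraries and 3 higher, against 16.3% and 9.16% of tested genes. With TMM-scaled totals these counts turned to 3 and 8, against 13.2% and 13.1%, so the scaling decides their direction. Without GFP Dox replicate 1, 26 members were below 0 and the median was −0.04.

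NOP10, the smallest H/ACA protein, was the lowest here, with 45.6 and 91.6 CPM in GFP Dox and 147 and 105 CPM in GFP DMSO. Both Dox libraries were below both DMSO libraries. The log2 fold change was −0.82 ± 0.35 (adjusted p = 1, edgeR quasi-likelihood), and −0.51 without GFP Dox replicate 1. NOP56, a core box C/D protein, followed at −0.25 ± 0.24, and GNL2, a GTPase of 60S export, at −0.22 ± 0.23, both with GFP Dox replicate 1 as the low library.

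GAR1 was highest, at 74.7 and 45.9 CPM in GFP Dox and 41.4 and 44.2 CPM in GFP DMSO. GFP Dox replicate 1 alone stood out, and the log2 fold change of 0.62 ± 0.33 was 0.06 without it. NOP2, a methyltransferase of 28S rRNA, had 204 and 159 CPM in GFP Dox and 118 and 139 CPM in GFP DMSO, without overlap, at 0.61 ± 0.27, and 0.26 when GFP Dox replicate 1 was left out. MYBBP1A, a nucleolar protein that binds MYB and RNA polymerase I, was at 0.49 ± 0.25, and at 0.23 without that library.

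**Figure D3:**
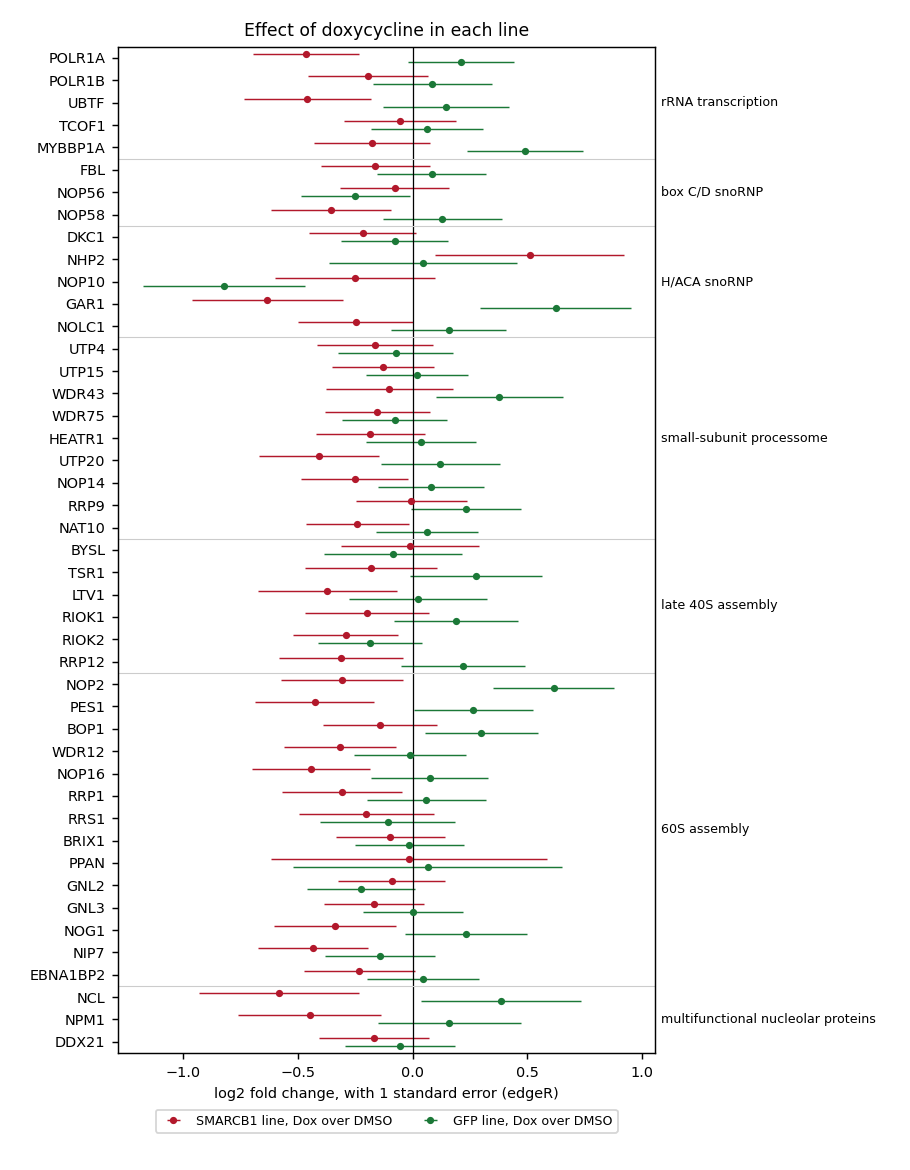
Log2 fold change of Dox over DMSO for the 45 genes in the SMARCB1 line (red) and the GFP line (green), with 1 SE from the edgeR fit of 8 libraries, ordered by role. In the SMARCB1 line 44 of 45 points lie left of 0, with a median of −0.22, and in the GFP line the points scatter around 0 with a median of 0.07.

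The effects of Dox in the lines were then compared directly. For the difference between them (SMARCB1 line minus GFP line), 40 of 45 members were below 0 (background 52.3%) with a median of −0.30, against −0.03 over all tested genes. None was called (0 of 45, background 0%; smallest adjusted p = 0.981, edgeR quasi-likelihood; DESeq2 called 0), and GAR1 (−1.26 ± 0.46) and NOP2 (−0.92 ± 0.38) had an unadjusted p below 0.05. A difference between the lines was thus not shown for any single member. The median moved to −0.17 without GFP Dox replicate 1 and to −0.16 without SMARCB1 DMSO replicate 2, with 35 members below 0 in each case. Scaling by library size alone moved the median over all genes to 0.16 and that of the members to −0.10.

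Under Dox, the lines differ in their transgene product and in background. In SMARCB1 Dox against GFP Dox, 2 of 45 members were called, both lower, where 6.55% of tested genes were called and 3.24% were called lower. The medians were −0.38 for the members and −0.01 for all genes, and 40 members were below 0 (background 50.9%). On gene totals 22 members were lower in both SMARCB1 libraries and 3 (FBL, NOP56 and NOP10) were higher, against 17.2% and 27.9% of tested genes. With TMM-scaled totals the counts were 29 and 2, against 22.9% and 23.2%. This comparison shares its SMARCB1 Dox libraries with the first comparison and its GFP Dox libraries with the second.

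MYBBP1A (chr17:4538897-4555386) had 160 and 154 CPM in SMARCB1 Dox and 303 and 262 CPM in GFP Dox, against 154 and 174 CPM in SMARCB1 DMSO and 185 and 249 CPM in GFP DMSO. All 4 libraries of the SMARCB1 line were below all 4 of the GFP line. The log2 fold change under Dox was −0.997 ± 0.254 (adjusted p = 0.0288, edgeR quasi-likelihood), and under DMSO −0.33 ± 0.25 (adjusted p = 0.683). POLR1A had 225 and 265 CPM in GFP Dox and 206 and 245 CPM in GFP DMSO, above all libraries of the SMARCB1 line. Its log2 fold change under Dox was −0.91 ± 0.23 (adjusted p = 0.0300, edgeR quasi-likelihood), and under DMSO −0.23 ± 0.23 (adjusted p = 0.772).

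Both calls were lost in some fits that left out a library and so had fewer samples. Without GFP Dox replicate 1 no member was called, and the adjusted p was 0.139 for MYBBP1A (log2 fold change −0.74) and 0.0541 for POLR1A (−0.89) by edgeR's quasi-likelihood test. Leaving out either SMARCB1 Dox library also left 0 calls, with the remaining library assumed to vary like the other groups, while the log2 fold changes were −1.03 and −0.96 for MYBBP1A and −0.78 and −1.05 for POLR1A. Without GFP Dox replicate 2, when GFP Dox replicate 1 stood alone for its group, 11 members were called, all lower, with 14.3% of all genes called. The part of GFP Dox replicate 1 in these values was not tested beyond this.

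**Figure D4:**
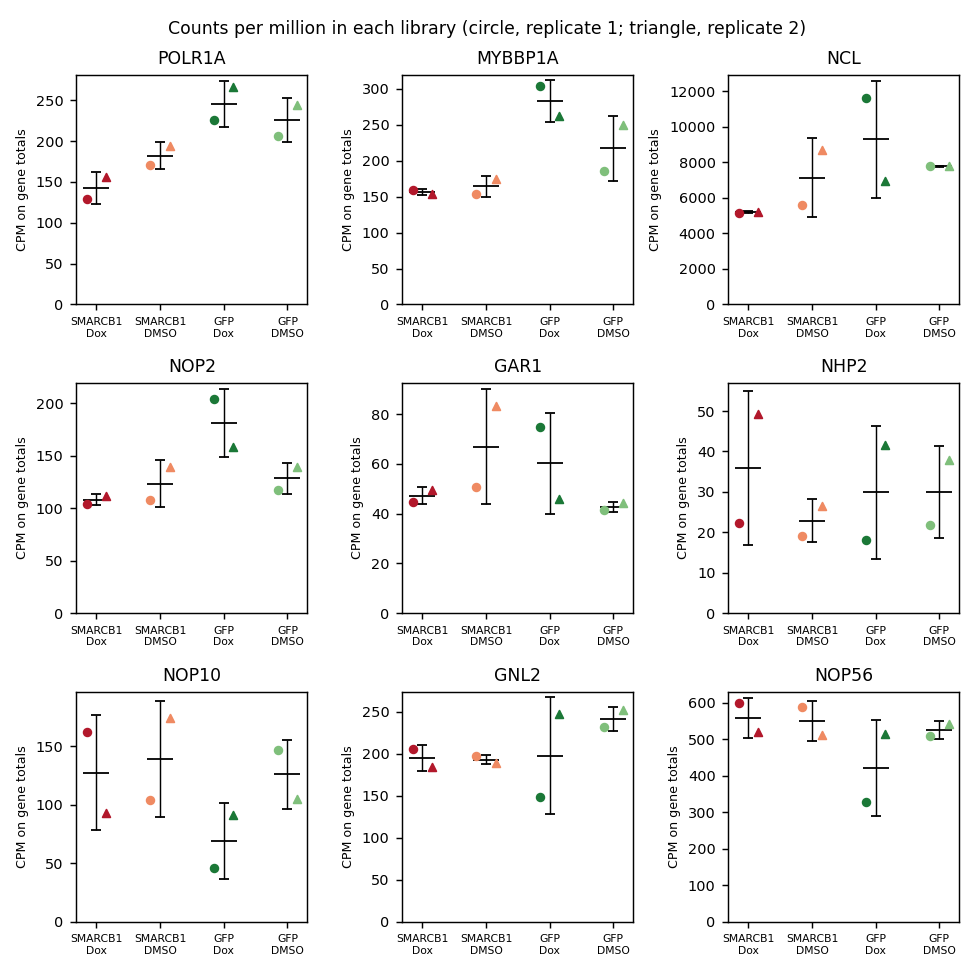
CPM on gene totals of 9 members in each of the 8 libraries (circle, replicate 1; triangle, replicate 2), with the mean and SD of each group of 2 in black. POLR1A and MYBBP1A are lower in all libraries of the SMARCB1 line than in those of the GFP line, and GFP Dox replicate 1 is the highest library for NCL (11613 CPM) and the lowest for NOP10, GNL2 and NOP56.

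Among members that did not pass, NOP2 had 104 and 112 CPM in SMARCB1 Dox, below both GFP Dox libraries, at −0.90 ± 0.27 (adjusted p = 0.0627, edgeR quasi-likelihood). NCL had 11613 and 6977 CPM in GFP Dox, at −1.01 ± 0.35 (adjusted p = 0.117, edgeR quasi-likelihood). NOLC1, a chaperone of snoRNPs, was at −0.74 ± 0.25 (adjusted p = 0.112, edgeR quasi-likelihood). DESeq2 called these 3 as well, at adjusted p = 0.0249, 0.0276 and 0.0381. On the other side, NOP10 stood at 0.80 ± 0.35 and NOP56 at 0.30 ± 0.24, the highest members.

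By role, the median under Dox was −0.68 for rRNA transcription, where TCOF1 at 0.03 ± 0.24 was the exception, and 0.05 for the box C/D proteins. The H/ACA proteins were mixed, with 3 below 0, 2 above and a median of −0.17. For NCL, NPM1 and DDX21 the median was −0.56. It was −0.41 in the processome and −0.40 in late 40S assembly, where all 9 and all 6 members were below 0. In 60S assembly all 14 were below 0 with a median of −0.34. Of the 115 other ribosome biogenesis genes tested, 2 were called, both lower: WDR3 and UTP14A, both factors of the small-subunit processome. WDR3 had 174 and 153 CPM in SMARCB1 Dox and 310 and 297 CPM in GFP Dox, at −1.04 ± 0.23 (adjusted p = 0.0144, edgeR quasi-likelihood). UTP14A had 62.2 and 60.1 CPM against 116 and 113 CPM, at −1.04 ± 0.29 (adjusted p = 0.0478, edgeR quasi-likelihood). Without GFP Dox replicate 1 neither was called, at −0.86 for WDR3 (adjusted p = 0.0512) and −0.88 for UTP14A (adjusted p = 0.164, edgeR quasi-likelihood).

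**Figure D5:**
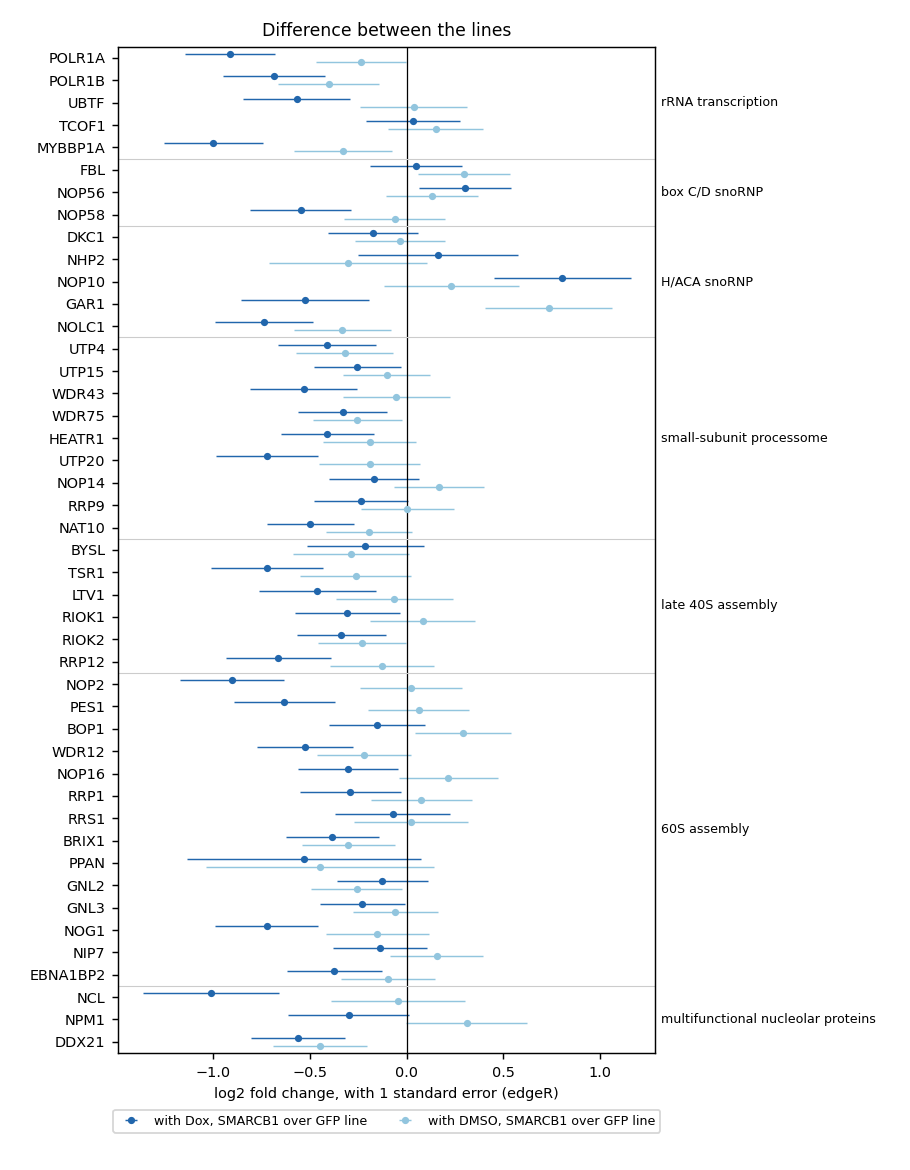
Log2 fold change of the SMARCB1 line over the GFP line for the 45 genes, with 1 SE from the edgeR fit, under Dox (dark blue) and under DMSO (light blue), ordered by role. Under Dox 40 of 45 points lie left of 0 (median −0.38), and under DMSO 28 do (median −0.06).

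The untreated lines were compared last. In SMARCB1 DMSO against GFP DMSO, 0 of 45 were called by edgeR's quasi-likelihood test (1 had an unadjusted p below 0.05, and DESeq2 called 0), where 5.29% of tested genes were called. The median was −0.06 against 0.02 over all genes, and 28 members were below 0 (background 48.5%). On gene totals 19 were lower in both libraries and 2 (FBL and GAR1) higher, against 26.9% and 18.5% of tested genes. With TMM-scaled totals the counts were 12 and 3, against 22.8% and 22%. GAR1 was highest at 0.73 ± 0.33 (adjusted p = 0.321, edgeR quasi-likelihood), and DDX21, an RNA helicase of the nucleolus that works with RNA polymerase I, was lowest at −0.45 ± 0.24 (adjusted p = 0.473). Without SMARCB1 DMSO replicate 2 the median was −0.23 with 38 members below 0, and without SMARCB1 DMSO replicate 1 it was −0.0012 with 23 below 0.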

How the data were processed

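Ribosome footprints of the 8 libraries were isolated with the RiboLace kit. The authors aligned them with STAR and deposited raw counts per gene, obtained by running HTSeq over annotated coding exons (GENCODE 42, intersection-strict). The strand option and the handling of adapters and ribosomal RNA are not given in the sources used here. The 5 summary entries per file did not enter totals or fits. Among them were reads with several alignments, at 25.6% to 56.4% of a tally that can count 1 read several times. The tally holds these, the counts on genes, and reads on no coding sequence or on more than 1 gene. Without reads of several alignments, 36.6% to 45.9% lay on no coding sequence and 1.29% to 1.74% on more than 1 gene.

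CPM used the total counts on genes (5924443 to 14000039). Symbols and coordinates come from GENCODE annotation 44 (293 identifiers unmatched). Counts were filtered with filterByExpr, scaled with TMM and fitted by edgeR 4.0.16 (R 4.3.3) with glmQLFit, 1 term per group over all 8 libraries. Genes were called at an adjusted p below 0.05. DESeq2 1.42.0, other scalings and filters, the replicate number as a block and leaving out each library were alternatives. The fit was tested on simulated counts. All 45 members passed the filter, and of 116 other ribosome biogenesis genes PWP2 did not. Named were called genes, the 3 highest and 3 lowest members in each Dox comparison, the highest per role and length, and members sharing sequence; other members were named after their values were seen. The members and lists were chosen with earlier results of these data known. Replicates were labelled as separate samples and the methods describe duplicate experiments without further detail, so p-values may measure only technical spread. Their counts differed beyond sampling noise (chi-square per degree of freedom 12.8 to 39.7). Some items are not reported here.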

Additional observations from a re-analysis of the deposited data

How the results depend on the processing

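Replicates differed by more than counting error at these depths (chi-square per degree of freedom 12.8 to 39.7), so across genes as a whole the spread over 2 libraries limits the values more than the number of counts. No member was called in 4 of the 5 comparisons under any alternative, while the 2 calls in SMARCB1 Dox against GFP Dox moved with most of them. Where a value changed with a setting, the cause was not tested.

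In SMARCB1 Dox against GFP Dox, the members called were 1 with library size only (5.87% of all genes called), 5 with DESeq2 (8.75%; 2 of the 5 with a fold change above 2), 5 without a filter on low counts (7.01%; 4 lower and NOP10 higher), 0 with only the groups compared (4.89%), and 0 to 11 when a library was left out (3.12% to 14.3%; 0 to 6 members with a fold change above 2). With RLE size factors 1 of the 2 calls passed a fold change of 2. The other ribosome biogenesis genes called were 2 as reported, 1 with library size only, with at least 10 counts in every library and with only the groups compared, 5 with DESeq2 and without a filter, and 0 to 22 with a library left out. Scaling by library size moved the median of members there to −0.24, their median for the difference between the Dox effects to −0.10, and the members below 0 in GFP Dox against GFP DMSO to 27. Leaving out a library gave medians of −0.35 to −0.12 in the SMARCB1 line, −0.04 to 0.16 in the GFP line, −0.40 to −0.16 for the difference, −0.23 to −0.0012 between the lines under DMSO, and −0.50 to −0.23 under Dox. The members below 0 were then 34 to 43, 11 to 26, 35 to 41, 23 to 38 and 37 to 40 in the same order. The median of the other ribosome biogenesis genes was then −0.11 to 0.06 in the GFP line and −0.26 to −0.10 for the difference. With TMM-scaled totals, 18 members were lower without overlap in the SMARCB1 line, where 18.3% of tested genes were. In the GFP line 3 were lower and 8 higher, against 13.2% and 13.1% of tested genes. Between the lines under DMSO 12 were lower, against 22.8%.

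In the SMARCB1 line, the values near 0 changed sign. BYSL was at 0.00186 with RLE size factors, 0.00219 with DESeq2, 0.11 with library size only, 0.00599 with only the groups compared, and −0.29 to 0.35 when a library was left out. RRP9 was at 0.00625 with RLE size factors, 0.00566 with DESeq2, 0.11 with library size only, 0.00011 without a filter, 0.00346 with at least 10 counts in every library, 0.011 with only the groups compared, and −0.19 to 0.21 when a library was left out. NHP2 ranged from −0.15 (without SMARCB1 Dox replicate 2) to 0.98.

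Same-numbered libraries shared part of their deviations (correlation 0.0563 to 0.382, above 0.1 in 5 of 6 pairs of groups), and no label ties a number to a batch, so they were not treated as pairs. With the replicate number as a block, 3 members (MYBBP1A, POLR1A and NOP2, the last at adjusted p = 0.0425) and 4 other ribosome biogenesis genes were called in SMARCB1 Dox against GFP Dox, where 8.31% of all genes were, 0 members in the other comparisons, and BYSL and RRP9 stood at 0.0408 and 0.00997 in the SMARCB1 line.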

Other observations

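The members' coding sequences ran from 39.7% GC (RIOK2) to 65.4% GC (BOP1), with a median of 50.7%. Across the 45 members, GC content and the mean log2 difference of replicate 2 over replicate 1 had a Pearson correlation of 0.61, and across 11096 tested genes it was 0.45. The genes share their libraries and are not independent, so these are descriptions. NHP2, TCOF1 and UBTF, with 57.1%, 59.6% and 54.6% GC, were higher in replicate 2 in all 4 groups, as were 7 members in all (15.6%, against 14.3% of tested genes). NOP58, WDR75, UTP20 and POLR1B, with 39.7%, 39.7%, 41.8% and 47.1% GC, were lower in replicate 2 in all groups. In all, 7 members were lower in this way (15.6%, against 13.2% of tested genes). Both shares of members were close to those of tested genes. Within single groups, the correlation of GC content with the replicate difference across members was 0.32 in SMARCB1 Dox and 0.52 in SMARCB1 DMSO. It was 0.23 in GFP Dox and 0.75 in GFP DMSO. With the log2 fold changes between conditions, GC content had correlations of 0.01 to 0.22 across members, the highest of them close to the value in GFP Dox.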
